A study of Saccharomyces pastorianus with 12 samples.

Results

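The mitochondrial ribosomal protein genes of lager brewing yeast were followed through a lager beer fermentation at production scale. They were taken as every probe whose annotated gene symbol begins with MRP, or is RSM followed by digits. This gave 64 genes, each with 1 probe, of 6051 measured rows in all. Of the 64 symbols, 33 begin with MRPL, 9 with MRPS, 11 are MRP followed by digits and 11 are RSM genes. By their known place in the ribosome, 37 belong to the large subunit and 26 to the small subunit. The remaining member, MRP8, was once taken for a mitochondrial ribosomal protein from its sequence and is no longer counted as one, so the label does not hold for it and it is given apart below.

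The yeast is Saccharomyces pastorianus, a hybrid of S. cerevisiae and a second parent, and its total RNA was read at 0, 1, 24, 48, 72, 96, 120, 144, 168, 192, 240 and 264 h of fermentation, with 1 array at each time. Every sample is the same kind of yeast in the same kind of fermentation, and sampling time is the one thing that the labels vary. The labels name neither the strain nor the number of vessels. Neighbouring times were pooled into 4 windows, with 2 arrays at 0 and 1 h, 3 from 24 to 72 h, 3 from 96 to 144 h and 4 from 168 to 264 h, so the spread within a window holds both array noise and real change with time.

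Mitochondria keep a ribosome of their own, descended from that of bacteria, which makes the few proteins still encoded by mitochondrial DNA, chiefly core subunits of the respiratory chain and of the ATP synthase. Nearly all of its protein parts are encoded in the nucleus, made in the cytosol and imported. Some members have a counterpart in the bacterial ribosome (here named by family, such as uL23 or bS21), and others occur in mitochondria alone. In S. cerevisiae the messages of many of these genes are bound by the RNA-binding protein Puf3. Cytosolic ribosomal protein genes, in contrast, form a separate set that yeast switches on together when it starts to grow. A brewing fermentation runs largely without oxygen, and beer yeast needs little respiration during it.

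A level below is a gene's log2 intensity minus that of its array's median gene. Array medians ran from 762 to 10142 intensity units, and the SD of level over all genes lay between 0.67 (240 h) and 1.56 (1 h). Of the 768 member values, 18 (2.34%), in 11 genes, lay below the 5th percentile of their array, where signal over background was unknown. Probes of different genes differ in brightness for the same amount of message. A position against the median gene, a rank or a comparison of levels between lists therefore holds probe brightness as well as amount of message. Changes with time are compared within a gene. In bulk RNA, fewer cells holding a message and less message per cell cannot be told apart.

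As a group the mitochondrial ribosomal protein genes stayed close to the median gene at every time. Their median level was 0.01 at 0 h, 0.17 at 1 h, 0.11 at 24 h, 0.15 at 48 h, 0.09 at 72 h and 0.02 at 96 h. It was 0.14 at 120 h, 0.21 at 144 h, 0.25 at 168 h, 0.10 at 192 h, 0.10 at 240 h and -0.12 at 264 h. The whole course therefore spanned 0.36 log2 units, with the top at 168 h and the bottom at 264 h, the last sample. Over the same arrays the median of 132 cytosolic ribosomal protein genes spanned 5.10 log2 units, from -0.03 at 240 h to 5.07 at 1 h. After quantile normalization, which forces all arrays to 1 distribution, the spans were 0.38 for the mitochondrial and 3.03 for the cytosolic genes.

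Ranks within each array, which no scaling of the array can alter, showed the same contrast. The median member stood between the 43.7th percentile of all genes at 264 h and the 60.4th at 144 h. The median cytosolic ribosomal protein gene stood between the 47.7th percentile at 240 h and the 98.5th at 1 h. The 33 measured genes of the respiratory chain and ATP synthase, whose mitochondrially encoded partner subunits the mitochondrial ribosome makes, had a median level of 1.53 at 1 h, 1.52 at 168 h, 0.54 at 192 h, -0.03 at 240 h and -0.03 at 264 h. Their median was thus above that of the ribosomal members on 11 arrays and below it at 240 h.

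**Figure D1:**
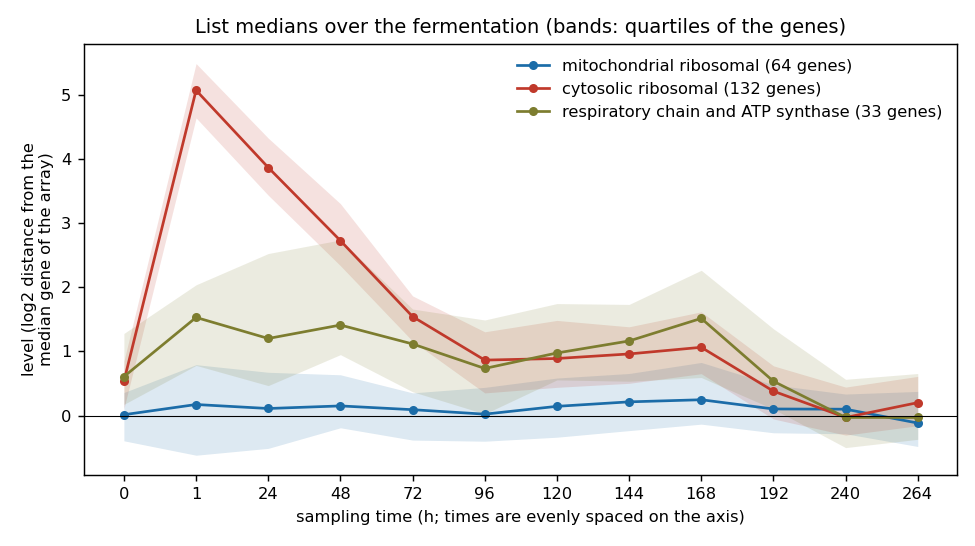
Median level (log2 units above or below the array's median gene, vertical axis) at each of the 12 sampling times (horizontal axis, evenly spaced), for 64 mitochondrial ribosomal, 132 cytosolic ribosomal and 33 respiratory chain and ATP synthase genes, with bands from the lower to the upper quartile of the genes. The mitochondrial ribosomal median runs between -0.12 and 0.25, while the cytosolic one peaks at 5.07 at 1 h.

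Single members ranged more widely than the group median, and in different directions. A median over 64 genes tends to vary less through averaging. With 1 array at each time, the span of a single gene also holds array noise. The span of a member over the 12 arrays had a median of 1.71 log2 units, from 0.74 in MRPL31 to 3.48 in MRP17, against a median of 2.09 over 6048 genes with a value on all arrays. Spans over 2 log2 units were seen in 24 of 64 members (37.5%) and in 54.9% of all genes. On each array between 48 and 58 members lay within 1 log2 unit of the median gene, or 75% to 90.6%, against 55.2% to 86.9% of all genes. The SD of level over the members was smaller than that over all genes on every array, for example 0.88 against 1.56 at 1 h and 0.63 against 0.67 at 240 h.

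The members did not share 1 time course. Over the 12 arrays the Pearson correlation between a pair of members had a median of 0.04 (2016 pairs), against 0.94 for pairs of cytosolic ribosomal protein genes, 0.47 for pairs of respiratory chain and ATP synthase genes and 0.00 for pairs of all genes. These correlations are descriptions over 12 arrays that share their scaling, and genes are not independent of each other. The times of the highest value were scattered accordingly. They fell at 168 h for 12 members (14.9% of all genes peaked there), at 1 h for 10 (19.8% of all genes), at 192 h for 10 (8.23%), at 144 h for 7 (3.01%) and at 24 h for 6 (10.5%). The lowest value fell at 264 h for 13 members, against 11.2% of all genes.

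Some members kept to 1 side of the median gene throughout. MRP4, MRP8, MRPL37, MRPL9, MRPS17, MRPS5, MRPS9 and RSM28 were above it on all 12 arrays (8 of 64, or 12.5%, against 9.56% of all genes). MRPL19, of the uL11 family, and MRPL22, of the uL22 family at the exit of the tunnel through which the new protein leaves, were below it on all 12 (3.12%, against 7.28% of all genes). A further 19 members, among them MRPL4, MRPL31 and MRPL7, never left the range of 1 log2 unit around the median gene (29.7%, against 13.9% of all genes). MRPL31, a part found in mitochondrial ribosomes alone, ran between -0.26 at 1 h and 0.48 at 192 h. MRPL7, of the uL5 family, ran between -0.18 at 240 h and 0.69 at 120 h, and MRPL22 between -1.13 at 1 h and -0.24 at 192 h. These were the 3 narrowest courses of the list.

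**Figure D2:**
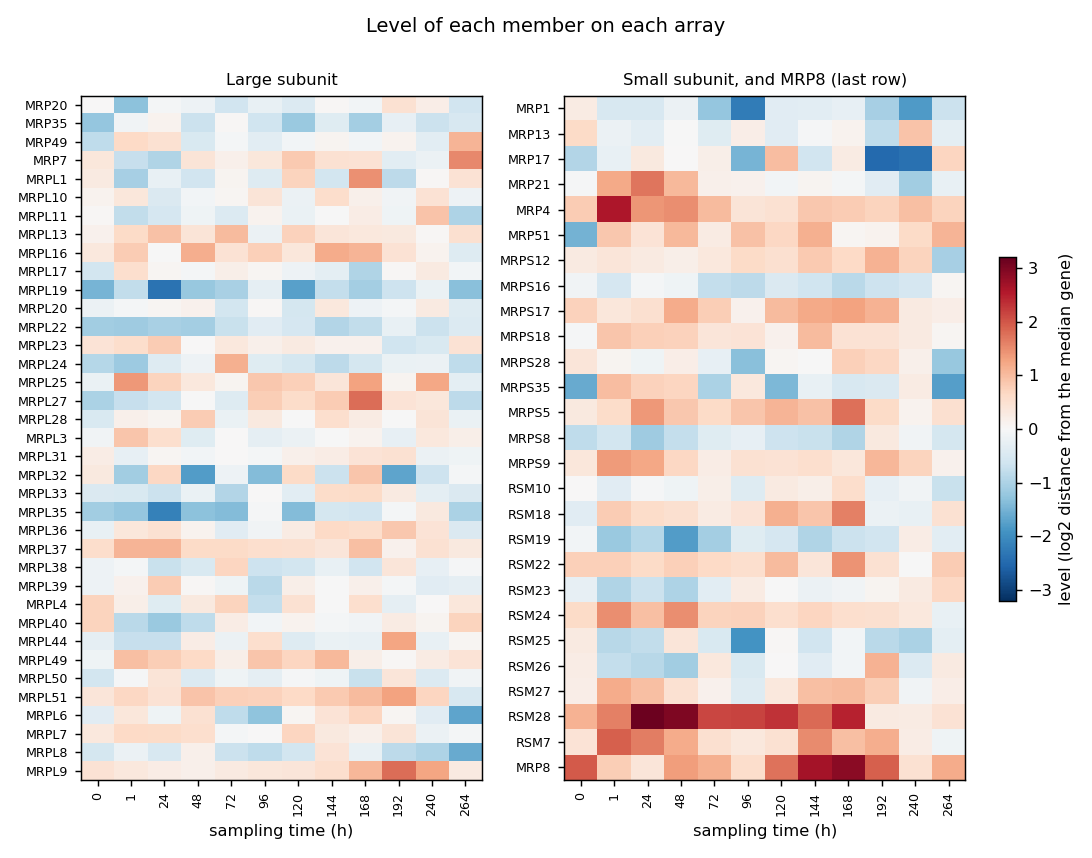
Level of each of the 64 members (rows, by subunit, with MRP8 last on the right) on each of the 12 arrays (columns, sampling time in h), as log2 distance from the array's median gene, from blue (below) to red (above). Most cells lie within 1 log2 unit of the median gene, RSM28 is high from 24 to 168 h (1.82 to 3.14), and no column is coloured as a whole.

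The comparison of 1 h with 0 h covers the first hour of the fermentation, with 1 array each and no replicate check. The median difference of the 64 members was 0.26 log2 units (1.19-fold), against 0.05 over all genes, 4.57 over the cytosolic ribosomal protein genes and 1.01 over the respiratory chain and ATP synthase genes. After quantile normalization these medians were 0.16, -0.02, 2.40 and 0.24. In all, 38 members were higher at 1 h and 26 lower. Over 2-fold differences upward were seen in 12 members (18.8%), against 22.7% of all genes, and downward in 9 (14.1%), against 18.3% of all genes. By contrast, 129 of 132 cytosolic ribosomal protein genes were over 2-fold higher.

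The 5 largest differences upward in the first hour were in 4 small-subunit genes and MRPL25. MRPS35, a small-subunit protein of mitochondria alone, was at 0.98 at 1 h and -1.61 at 0 h, a 6.05-fold difference. MRP51, a small-subunit protein, was at 0.86 at 1 h and -1.51 at 0 h, a 5.15-fold difference. Both signals at 0 h (675 and 727 units) lay under the array's 5th percentile (835 units), so the sizes of these 2 differences are uncertain. MRP4, of the uS2 family, was at 2.58 at 1 h and 0.82 at 0 h (3.37-fold), MRPL25 at 1.38 at 1 h and -0.21 at 0 h (3.01-fold) and RSM7, of the uS7 family, at 1.90 at 1 h and 0.44 at 0 h (2.76-fold). After quantile normalization the log2 differences of MRP4 and RSM7 were 0.56 and 0.66, against 1.75 and 1.46, while that of MRPL25 was 1.21, against 1.59. On that scale MRP49 and MRP35, both of the large subunit, stood above MRPL25, at 1.38 each. The median difference of the small-subunit members was then -0.04, against 0.26 before. The subunits of the largest differences upward thus depend on the scaling.

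The 5 largest differences downward in the first hour were in 4 large-subunit genes and RSM25. MRPL40, of the uL24 family, was at -0.86 at 1 h and 0.71 at 0 h (2.97-fold lower). MRPL32, of the bL32 family, whose maturation depends on a protease of the inner membrane, was 2.69-fold lower, and MRPL1, of the uL1 family, 2.52-fold lower. MRP20, of the uL23 family at the tunnel exit, was at -1.31 at 1 h and 0.00 at 0 h (2.49-fold lower), and RSM25 was 2.29-fold lower. MRPL4, of the uL29 family, and MRPL22 were also named for a role at the tunnel exit. MRPL4 was at 0.18 at 1 h and 0.72 at 0 h (1.46-fold lower), and MRPL22 at -1.13 at 1 h and -1.12 at 0 h. The full set of tunnel exit proteins was not examined, so these values do not describe that site. The 5 largest differences downward kept their direction after quantile normalization, with log2 differences from -1.61 to -1.05.

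**Figure D3:**
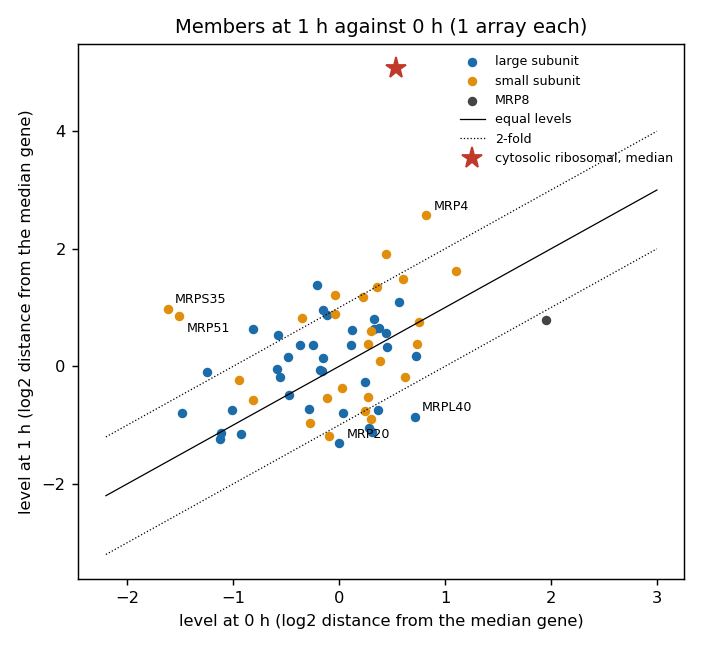
Level at 1 h (vertical axis) against level at 0 h (horizontal axis) for the 64 members, coloured by subunit, with lines of equal level and of 2-fold difference and a star for the median of 132 cytosolic ribosomal protein genes. Members lie on both sides of the line of equal levels, with 12 over 2-fold above it and 9 over 2-fold below it, and the star lies at 0.53 at 0 h and 5.07 at 1 h.

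From 0 and 1 h to 24, 48 and 72 h the members showed no common shift. The median change was 0.00 log2 units, against -0.08 over all genes, with 32 members above and 32 below. In limma 0 of 64 members passed over all genes, where 0 of 6051 rows passed (0%), and the lowest adjusted p of a member was 1.00. At an unadjusted p under 0.05 there were 2 members higher and 0 lower, against 1.6% and 1.22% of all genes (2.83% in either direction). The arrays of the 2 windows did not overlap for 9 members (14.1%), against 13.7% of all genes. Of these 6 were higher, against 6.59% of all genes, and 3 lower, against 7.11%. The cytosolic ribosomal protein genes had a median change of -0.08 here, with 0 of 132 at an unadjusted p under 0.05. Their windows did not overlap for 1 gene (0.76%). Yet their median was 0.53 at 0 h and 5.07 at 1 h, and the early window pools both arrays. This comparison therefore cannot show a change that took place within the first hour.

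The 5 members with the largest differences upward were 3 of the small and 2 of the large subunit. RSM28, a small-subunit protein first known from its part in starting translation of certain respiratory messages, averaged 2.75 ± 0.54 at 24 to 72 h (SD, n = 3) and 1.36 ± 0.36 at 0 and 1 h (n = 2), 2.62-fold higher (limma adjusted p = 1.00). MRPL24, of the bL28 family, averaged 0.19 ± 0.84 at 24 to 72 h and -1.04 ± 0.16 at 0 and 1 h. Its 72 h value of 1.14 stood far above its 24 and 48 h values of -0.42 and -0.15, and without that array its change was 0.75, against 1.23 with it. MRP51 differed by 0.91, MRP17, of the bS6 family, by 0.75, and MRPL27 by 0.54, none of them past the threshold. With the 0 h array left out the difference of MRP51 was -0.28, and with the 1 h array left out it was 2.09. The largest differences downward were smaller, at -0.63 for RSM19, of the uS19 family, -0.52 for MRP1, -0.51 for MRPL40, -0.47 for MRP13 and -0.44 for MRPL35, none of them past the threshold. Those of RSM19, MRP1, MRPL40 and MRP13 too rest on which of the 2 early arrays is used. With 0 h left out they were -0.09 for RSM19, -0.12 for MRP1, 0.28 for MRPL40 and -0.06 for MRP13, and with 1 h left out -1.18, -0.91, -1.29 and -0.87. MRPL35 was at -0.17 with 24 h left out, and MRP17 at 0.40 with 0 h left out.

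From 24 to 72 h to 96, 120 and 144 h the list again had a median change near 0, at 0.02 against 0.00 over all genes, with 33 members above and 31 below. The cytosolic ribosomal protein genes had a median change of -1.88 here, with 5 of 132 above. In limma 0 of 64 members passed, with 0 of 6051 rows called (0%) and a lowest member adjusted p of 0.687. At an unadjusted p under 0.05 there were 0 members, against 7.04% of all genes (2.83% higher and 4.21% lower). Of the cytosolic ribosomal protein genes 0 of 132 passed as well, and 65 had an unadjusted p under 0.05. Windows did not overlap for 7 members (10.9%), against 17.2% of all genes and 72.7% of the cytosolic ribosomal protein genes. Of the 7, 4 were higher, against 7.24% of all genes, and 3 lower, against 9.95%.

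The largest difference upward in this step was that of MRPL27, a large-subunit protein of mitochondria alone. It averaged 0.73 ± 0.13 at 96 to 144 h (SD, n = 3) and -0.33 ± 0.29 at 24 to 72 h (n = 3), 2.09-fold higher without passing (limma adjusted p = 0.687). Over the course MRPL27 stood at -1.01, -0.75, -0.58, -0.01 and -0.41 up to 72 h, at 0.80, 0.58, 0.81 and 1.79 from 96 to 168 h, and at 0.44, 0.37 and -0.83 from 192 to 264 h. It was thus low early, high from the fifth day and low again at the end. MRPL35 differed by 0.96, MRP8 by 0.70, MRPL33, of the uL30 family, by 0.69, and MRP7, of the bL27 family, by 0.69. On the other side MRP21, of the bS21 family, differed by -0.92, MRPL24 by -0.79, MRP4 by -0.71, RSM28 by -0.66 and MRPS35 by -0.58, none of these 9 past the threshold. The change of RSM28 was -0.05 after quantile normalization. Single arrays moved several of these differences. The lowest and highest with 1 array left out were 0.19 and 1.25 for MRP8, 0.27 and 0.96 for MRP7, -1.09 and -0.31 for MRPL24 and -1.16 and -0.08 for MRPS35, against 0.94 and 1.22 for MRPL27.

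From 24 to 72 h to 168, 192, 240 and 264 h the members had a median change of -0.06, against 0.04 over all genes. The cytosolic ribosomal protein genes had a median change of -2.23, with 4 of 132 above, and the respiratory chain and ATP synthase genes -0.85, with 4 of 33 above. Among the members 30 were above and 34 below. In limma 0 of 64 passed, where 5 of 6051 rows (0.0826%) did. At an unadjusted p under 0.05 there were 4 members higher, against 6.18% of all genes, and 2 lower, against 8.68% (14.9% in either direction). Windows did not overlap for 7 members (10.9%), against 12.5% of all genes. Of the 7, 4 were higher, against 5.19% of all genes, and 3 lower, against 7.35%. This comparison and the one before it share the 24, 48 and 72 h arrays.

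**Figure D4:**
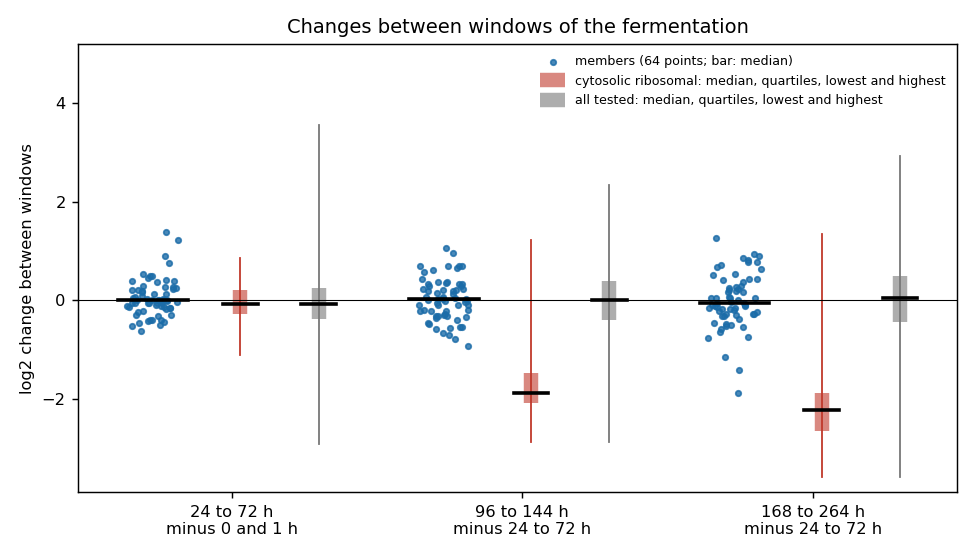
Log2 change between windows (vertical axis) in the 3 comparisons, with each of the 64 members as a point and their median as a bar, beside the median, quartiles, lowest and highest value of 132 cytosolic ribosomal protein genes and of all 6051 tested rows. The member medians are 0.00, 0.02 and -0.06, and those of the cytosolic ribosomal protein genes are -0.08, -1.88 and -2.23.

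RSM28 had the largest late difference of any member. Its intensities from 0 to 264 h were 4440, 15531, 77484, 36774, 33817, 45039, 18184, 2862, 4167, 2324, 2008 and 3580 units. Its levels were 1.10, 1.61, 3.14, 2.98, 2.13, 2.15, 2.31, 1.82, 2.45, 0.28, 0.26 and 0.47. It was high from 24 to 168 h and low from 192 h on, and its 168 h value lay within the range of the earlier window, so the 2 windows overlapped. It averaged 0.87 ± 1.06 at 168 to 264 h (SD, n = 4) and 2.75 ± 0.54 at 24 to 72 h (n = 3), 3.69-fold lower (log2 change -1.88, SE 0.51; limma adjusted p = 0.137). Without the 168 h array the change was -2.41 and passed (limma adjusted p = 0.00796, with 1.8% of all genes called), and without the 0 h or the 1 h array it was -1.88 and passed (limma adjusted p = 0.0451 each, with 4.25% of all genes called). With the 24 h array left out it was -1.69 (limma adjusted p = 0.654), the highest p of the 12 such fits. Removing 0 or 1 h leaves the difference as it is and changes the estimate of the spread.

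MRP21 had the next largest late difference, and its windows did not overlap. Its levels were -0.04, 1.21, 1.71, 1.04, 0.16, 0.14, -0.08, 0.08, -0.06, -0.35, -1.12 and -0.24 from 0 to 264 h. It was high from 1 to 48 h and near or below the median gene from 72 h on. It averaged -0.44 ± 0.47 at 168 to 264 h and 0.97 ± 0.78 at 24 to 72 h, 2.66-fold lower without passing (limma adjusted p = 0.189). RSM24, a small-subunit protein of mitochondria alone, had windows that did not overlap either, with 0.29 ± 0.37 at 168 to 264 h and 1.05 ± 0.39 at 24 to 72 h (1.69-fold lower without passing, limma adjusted p = 0.384). MRP4 was the remaining member whose late arrays all lay below, with a difference of -0.50, which was -0.11 after quantile normalization and -0.22 with all arrays scaled to equal spread. MRP17 differed by -1.15 (limma adjusted p = 0.495), but its levels late in the course were 0.25, -2.49, -2.39 and 0.68, and those at 192 and 240 h came from signals below the 5th percentile of their arrays. MRPS35 differed by -0.75 (limma adjusted p = 0.62), with overlapping windows and a signal at 264 h below that percentile.

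MRPL35, RSM19, RSM23 and MRPL9 were the 4 members whose late arrays all lay above those of 24 to 72 h, without passing. MRPL35, a large-subunit protein of mitochondria alone, averaged -0.35 ± 0.59 at 168 to 264 h and -1.62 ± 0.47 at 24 to 72 h, 2.41-fold higher (limma adjusted p = 0.215), and its 24 h signal was under the array's 5th percentile. RSM19 averaged -0.34 ± 0.42 at 168 to 264 h and -1.27 ± 0.46 at 24 to 72 h (limma adjusted p = 0.31), with its 48 h signal below that percentile. RSM23, a GTP-binding small-subunit protein related to the mammalian death-associated protein DAP3, averaged 0.23 ± 0.33 at 168 to 264 h and -0.67 ± 0.33 at 24 to 72 h (limma adjusted p = 0.284). Its course was -0.27, -0.96, -0.69, -0.99, -0.34, 0.25, -0.01, -0.20, -0.12, 0.10, 0.29 and 0.66, low from 1 to 48 h and highest at the last sample. MRPL9, of the uL3 family, averaged 1.10 ± 0.62 at 168 to 264 h and 0.23 ± 0.07 at 24 to 72 h (limma adjusted p = 0.313). It held between 0.16 and 0.53 on every array up to 144 h, stood at 1.06, 1.78 and 1.26 at 168, 192 and 240 h, and returned to 0.29 at 264 h. That 264 h level (0.291) was barely above its level at 72 h (0.288). MRPL40 differed by 0.81 with overlapping windows. With 1 array left out the late difference ran from -1.71 to -0.65 in MRP17, from -1.33 to -0.37 in MRPS35 and from 0.51 to 1.22 in MRPL40. It ran from -1.81 to -1.04 in MRP21, from 1.00 to 1.49 in MRPL35 and from 0.74 to 1.07 in RSM23. Of the 10 largest late differences, 5 each way, the 5 downward were all in the small subunit, and the 5 upward were 3 in the large and 2 in the small subunit. This split depends on the scaling. After quantile normalization MRPL24 (-0.82) and MRPL8 (-0.76), both of the large subunit, lay below MRPS35 (-0.66) and RSM24 (-0.62). With all arrays scaled to equal spread these values were -0.76, -0.81, -0.65 and -0.62.

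**Figure D5:**
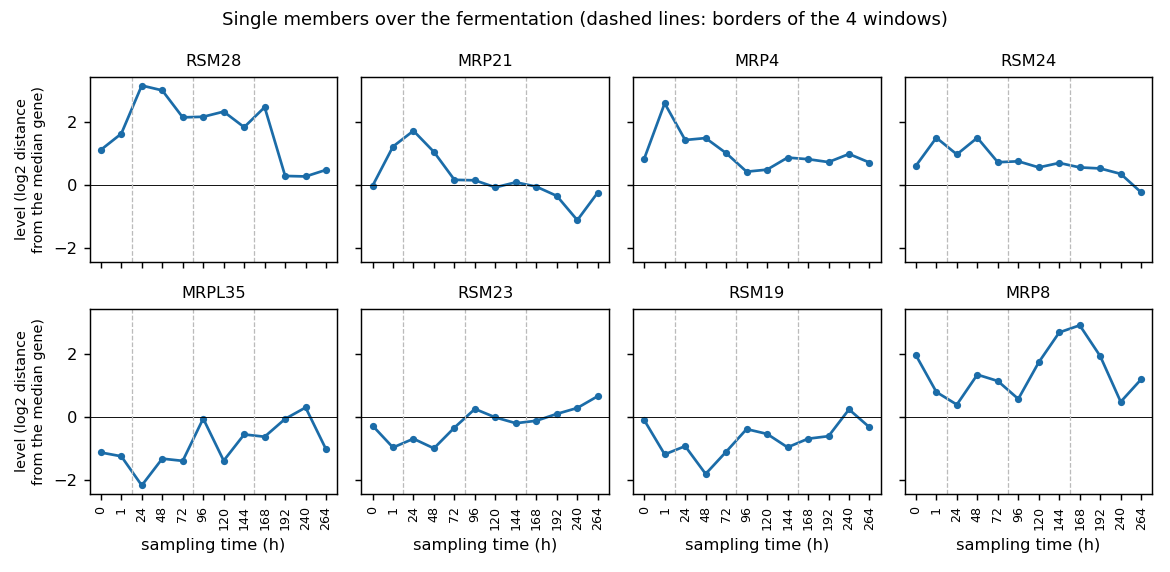
Level (log2 distance from the median gene, vertical axis) of 8 members at the 12 sampling times (horizontal axis), with dashed lines at the borders of the 4 windows. RSM28 stands at 2.45 at 168 h and 0.28 at 192 h, MRP21, MRP4 and RSM24 are highest within the first 48 h, MRPL35, RSM23 and RSM19 are lowest at 24 or 48 h, and MRP8 peaks at 168 h (2.90).

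Split by subunit, the late change had a median of 0.04 in the large subunit, with 21 of 37 genes above, and of -0.14 in the small subunit, with 8 of 26 above. From 24 to 72 h to 96 to 144 h the medians were 0.06 (22 of 37 above) and -0.16 (10 of 26 above), and from 0 and 1 h to 24 to 72 h they were 0.01 (20 of 37) and -0.03 (12 of 26). The difference between subunits was not tested. The median span of a gene over the course was 1.60 log2 units in the large and 1.996 in the small subunit. Members with a bacterial counterpart and members of mitochondria alone had late medians of -0.09 (17 of 39 above) and 0.02 (12 of 22 above). Of the remaining members fixed by role, MRPS12, of the uS12 family at the decoding site, ran between 0.19 and 1.11 up to 240 h and stood at -1.06 at 264 h. MRPS5, of the uS5 family, ran from 0.11 at 240 h to 1.76 at 168 h, RSM22, a methyltransferase-like small-subunit protein, from -0.01 at 240 h to 1.43 at 168 h, and MRPL6, of the uL6 family, from -1.69 at 264 h to 0.69 at 168 h. MRPL6 was under the array's 5th percentile in that last sample. MRP1, a small-subunit protein related to superoxide dismutases, was lowest at 96 and 240 h (-2.24 and -1.81), both from signals below that percentile, and highest at 0 h (0.27).

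Likeness to the cytosolic ribosomal protein genes was uneven. Over the 12 arrays 17 of 64 members (26.6%) had a Pearson correlation above 0.5 with the median of the cytosolic genes, against 23.5% of all genes, and 8 (12.5%) had one below -0.5, against 19.8%. In the small subunit 9 of 26 were above 0.5 and 3 below -0.5, and in the large subunit 8 of 37 and 5. The members most like the cytosolic genes were MRP21 (0.91), MRP4 (0.88) and RSM24 (0.81), followed by MRPL37 (0.79) and RSM7 (0.77). The members most unlike them were MRPL40 (-0.85), RSM23 (-0.85) and RSM19 (-0.68). MRP4 stood at 0.82, 2.58, 1.42, 1.48 and 1.00 up to 72 h and between 0.42 and 0.97 afterwards, with its peak at 1 h as in the cytosolic genes. MRPL40 ran the other way, at 0.71 at 0 h, -0.86, -1.18 and -0.80 from 1 to 48 h, and between -0.12 and 0.71 later. These members were picked from the same 12 arrays for their correlation, so the values are descriptions. Levels were centred but not scaled to equal spread, and the SD over all genes was 1.56 at 1 h and 0.67 at 240 h. Mean levels were 0.20 in MRP21, 1.02 in MRP4 and 0.70 in RSM24. They were -0.08 in MRPL40, -0.19 in RSM23 and -0.70 in RSM19. The part of array spread in these correlations was not tested. RSM28 was closer to the respiratory chain and ATP synthase median (0.80) than to the cytosolic one (0.55). The same held for other members, such as MRPL8 (0.80 against 0.45), MRPL16 (0.73 against 0.23) and MRPS5 (0.66 against 0.27). Others were closer to the cytosolic median, such as MRP4 (0.50 respiratory against 0.88 cytosolic) and MRPS9 (0.31 against 0.70). In all, 17 of 64 members (26.6%) had a correlation above 0.5 with the respiratory chain and ATP synthase median, against 20.8% of all genes. So did 124 of 132 cytosolic ribosomal protein genes (93.9%). Likeness to the respiratory median and likeness to the cytosolic median are therefore not separate traits.

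MRP8 is the member outside the ribosome. It stood at 1.95, 0.79, 0.39, 1.34, 1.14, 0.57, 1.73, 2.67, 2.90, 1.92, 0.48 and 1.19 from 0 to 264 h. It was high at 0 h, lower from 1 to 96 h, highest at 144 and 168 h and low again at 240 h. HAP4, the activator subunit of the Hap complex that turns on respiratory genes, stood at 2.65 at 0 h, -0.03 at 24 h, 2.84 at 168 h and 0.63 at 240 h. PUF3 itself stood at 1.00 at 0 h, 1.71 at 1 h, 1.24 at 24 h, -0.08 at 96 h, 1.60 at 168 h and -0.11 at 240 h. Neither HAP4 nor PUF3 passed in any window comparison, with limma adjusted p from 0.577 to 1.00.

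Change over the whole course was also tested with a smooth curve in hours, limma's moderated F test of a spline with 3 degrees of freedom. It called 0 of 64 members and 2 of 6051 rows (0.0331%). The lowest member adjusted p were 0.175 for MRPL27 and 0.177 for RSM28, and 4 members, also MRP21 and MRP8, had an unadjusted p under 0.05 (6.25%, against 16.1% of all genes and 87.9% of the cytosolic ribosomal protein genes). Without the 0 h array 5 members passed, with adjusted p of 0.0165 for MRP21, 0.0225 for MRPL27, 0.0246 for RSM28, 0.0278 for RSM7 and 0.0314 for MRP4, where 1113 of 6051 rows (18.4%) passed. After quantile normalization RSM28 passed (limma adjusted p = 0.0476), with 1.12% of all genes called.

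The other genes of mitochondrial protein synthesis gave no calls either, where 0, 0 and 5 of 6051 rows were called in the 3 comparisons. Of 12 mitochondrial ribosomal protein genes that carry other names, 0 passed in any window comparison in limma. Their median changes were -0.03 from 0 and 1 h to 24 to 72 h (5 of 12 above), 0.36 from 24 to 72 h to 96 to 144 h (11 of 12 above) and 0.04 from 24 to 72 h to 168 to 264 h (7 of 12 above). At an unadjusted p under 0.05 there were 0, 1 and 1 of these 12 genes, against 2.83%, 7.04% and 14.9% of all genes. Among them YML6, of the uL4 family, differed by 1.18 at 96 to 144 h and by 1.19 at 168 to 264 h from 24 to 72 h (limma adjusted p = 0.687 and 0.254). NAM9, of the uS4 family, differed by 0.36 and 0.79 (limma adjusted p = 0.865 and 0.34). PET123, a small-subunit protein of mitochondria alone, differed by 0.14 and -0.16.

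Of 20 mitochondrial translation factors and ribosome assembly genes, 0 passed in any window comparison in limma. At an unadjusted p under 0.05 there were 0, 0 and 4, against 2.83%, 7.04% and 14.9% of all genes. The median changes were -0.15, -0.05 and 0.07 in the 3 comparisons in order. The median difference of these genes between 1 h and 0 h was -0.55 log2 units, with 13 of 20 genes lower at 1 h and 4 of them over 2-fold (20%, against 18.3% of all genes). TUF1, the elongation factor that brings the aminoacyl-tRNA, stood between -0.85 at 240 h and 0.93 at 120 h, and MEF1, the factor that moves the ribosome along, between -0.47 at 24 h and 0.40 at 72 h. OXA1, the insertase that places new proteins in the inner membrane, was highest at 24 h (1.09) and lowest at 96 h (-0.42). Further lists were 14 mitochondrial aminoacyl-tRNA synthetase genes, 17 genes of activators that serve single messages, 26 import genes and 10 genes of mitochondrial transcription and RNA decay. Of these, 0 passed in any window comparison in limma. From 24 to 72 h to 168 to 264 h 1, 1, 3 and 1 had an unadjusted p under 0.05, against 14.9% of all genes. The late median changes were -0.01 for the synthetases, 0.04 for the activators, -0.08 for import and 0.31 for transcription and RNA decay (8 of 10 above). Ribosome biogenesis genes of the nucleolus, which serve the cytosolic ribosome, had a median of 0.84 at 1 h minus 0 h (62 of 85 higher) and a late median of -0.27 (23 of 85 above).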

How the data were processed

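Per the labels, total RNA of 12 lager yeast samples was read on 1 array each. The deposited values are linear intensities, whole numbers for 6084 probes, whose background correction, scaling and scanner are not given in the sources used here. The platform annotation gave S. cerevisiae gene symbols to 5523 probes (0 with several symbols) and none to 561. Averaging the 32 symbols that more than 1 probe carries left 6051 tested genes or unnamed probes. The 3 zero intensities were set to missing. Log2 values had the median of their array, taken over genes present on all arrays, subtracted.

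Windows were compared with limma 3.58.1 under R 4.3.3, by lmFit and eBayes on all 12 arrays with at least 9 values a gene. The tests were two-sided, p-values were adjusted by Benjamini-Hochberg over everything tested, and the threshold was 0.05. The fits were tried on simulated data with independent noise and known shifts in the late window. Those data held no change within a window and no noise shared within an array, so they do not cover these limits. Arrays of a window are different times, and the labels do not say whether they come from 1 fermentation, so p-values measure only the spread between these samples. Alternatives were other scalings, filters on dim probes, other variance settings and leaving out each array. The number of arrays limits the precision.

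The members and gene lists were chosen with earlier results of these data known. Named members are the 5 largest differences each way per comparison, the 3 highest and lowest means, the 3 widest and narrowest courses, any past the threshold, and 12 members of known role (MRP10 is not analysed here). Members named for not overlapping windows, for 1 side of the median or for likeness were chosen after their values were seen. Subunits and families were assigned from general knowledge. Copies of the second parent of the hybrid were not resolved. No sequences are shown. Figures were drawn with matplotlib 3.10.9.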

Additional observations from a re-analysis of the deposited data

Results flagged for a closer look

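In the window of 168 to 264 h, RSM28 stood at 2.45 at 168 h, far from its other 3 values there, which lay between 0.26 and 0.47. Of 65 sets of 4 late values examined, namely 64 members and their median, this was the 1 set with a value so far from the rest. Chance flags about 1 in 20 sets of 4 replicates. The values here are successive times instead, so that rate need not apply to them. The 168 h array had a median intensity of 762 units. The part of that array in the result was not tested beyond leaving it out, which gave a late change of RSM28 of -2.41, against -1.88 with it.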

How the results depend on the processing

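Alternatives were fixed with earlier results of these data known, apart from the list without MRP8 and the list with 12 further mitochondrial ribosomal protein genes, which were chosen after seeing the data. Of 171 recomputed counts and medians, 159 moved by less than the spread of the member median within windows (0.11 log2 units) or gave the same count. The other 12 moved more. Many of the 171 could not move, so the 159 are no measure of stability. Leaving out an array of neither window, or fitting only the 2 windows compared, leaves a median change as it is. Counts of 0 recur where 0 of 6051 rows passed. As deposited, without centring, the median of all genes shifted by 0.99, -1.13 and -2.06 log2 units in the 3 window comparisons in order of time and by 1.35 from 0 to 1 h. The member medians shifted with it, to 1.07, -1.11, -2.16 and 1.55. On that scale 21 members passed from 24 to 72 h to 168 to 264 h (35.1% of all genes did) and 56 in the spline (84.1% of all genes). After quantile normalization 1 member passed in the spline. With each array left out, the member medians ran from -0.10 to 0.13, from -0.06 to 0.09 and from -0.10 to 0.02, the 0.13 being without 1 h. Member calls then stayed at 0 in the earlier 2 comparisons, ran from 0 to 1 in the late one (1 being RSM28) and from 0 to 5 in the spline. The signs of the member medians in the window comparisons, all within 0.10 of 0 on centred scales except without 1 h, are therefore not stable. No paired analysis was possible because the labels give no replicate numbers. Dim signals and the unknown background limit the 11 members with values below the 5th percentile of an array.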
